A study of Mus musculus with 4 samples.

Results

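The S100 proteins are small calcium-binding proteins of the EF-hand family, and 6 of their genes are described here across the cells of healing fractures: S100a8, S100a9, S100a4, S100a6, S100a10 and S100a11. They were taken by symbol from the 32285 genes counted in each library, and each symbol matched 1 gene. Fracture calluses of the tibia were collected from 20-month-old male C57BL/6J mice 7 days after they received a microgel containing adenosine (2 libraries) or an empty control microgel (2 libraries), and single-cell RNA sequencing in droplets was run on viable cells, chosen by propidium iodide sorting once red cells had been lysed. The labels name bone marrow as the tissue and callus as the material. Bone-forming and stromal cells were nearly absent: 6, 4, 17 and 1 cells passed the mesenchymal markers in control 1, control 2, adenosine 1 and adenosine 2, and values per library are given in that order throughout. No label ties a library to an animal of its own, so p-values measure only the spread between these libraries, which may be technical.

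S100a8 and S100a9 pair into calprotectin, the most abundant cytosolic protein complex of neutrophils. It binds calcium and, with high affinity, zinc and manganese, which starves microbes of metal, and when released it acts as an alarm signal on Toll-like receptor 4 and on the receptor for advanced glycation end products. S100a4 binds non-muscle myosin and is known for its role in cell motility. S100a10 forms a complex with annexin A2 at membranes and differs from the others in that it does not need calcium to take its active shape. S100a6 and S100a11 bind annexins and other cytoskeletal partners.

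The 6 genes lie on chromosome 3 (GRCm38, GENCODE M21) in 2 groups that are 2824766 bases apart. S100a4 (chr3:90603771-90606045, plus strand), S100a6 (chr3:90612882-90624181, plus strand), S100a8 (chr3:90668978-90670035, plus strand) and S100a9 (chr3:90692632-90695721, minus strand) form one group, and S100a11 (chr3:93520488-93526287) and S100a10 (chr3:93555080-93564643), both on the plus strand, form the other. S100a8 and S100a9 face each other across 22596 bases. S100a8 and S100a9 followed the same course over the granulocyte stages described below. S100a4, of the same group, ran the other way between neutrophils and monocytes, while S100a6, which lies between S100a4 and S100a8, did not. The stretch ahead of the start of S100a8, S100a9 and S100a4 is therefore shown 5′ to 3′ (RefSeq, GRCm38.p6). Capitals mark the letters TTNNGNAA (the core bound by C/EBP factors), GAGGAAG (the core bound by PU.1) or TATAAA, each searched on both strands.
S100a8, chr3:90668821-90668977, plus strand: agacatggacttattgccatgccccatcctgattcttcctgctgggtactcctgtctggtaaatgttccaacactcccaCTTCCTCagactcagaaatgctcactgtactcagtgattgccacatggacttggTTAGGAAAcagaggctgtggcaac
S100a9, chr3:90695722-90695971, minus strand: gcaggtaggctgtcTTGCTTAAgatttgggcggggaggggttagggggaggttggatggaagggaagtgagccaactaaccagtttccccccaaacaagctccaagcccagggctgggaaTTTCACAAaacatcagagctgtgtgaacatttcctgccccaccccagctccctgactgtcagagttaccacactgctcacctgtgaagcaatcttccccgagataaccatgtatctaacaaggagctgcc
S100a4, chr3:90603520-90603769, plus strand: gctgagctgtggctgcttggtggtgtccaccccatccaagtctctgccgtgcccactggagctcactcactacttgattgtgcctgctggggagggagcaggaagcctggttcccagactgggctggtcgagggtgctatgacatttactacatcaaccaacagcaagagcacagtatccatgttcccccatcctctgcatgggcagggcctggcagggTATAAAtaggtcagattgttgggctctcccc
The S100a8 stretch holds 1 match to the C/EBP letters and 1 to the PU.1 letters, and the S100a9 stretch holds 2 to the C/EBP letters. The S100a4 stretch holds TATAAA alone. The bases nearest the start of S100a8 and S100a9, not printed here, hold TATAAA as well, and those of S100a4 the PU.1 letters. Such letters are common: of 32851 promoter windows of 300 bases in the RefSeq table, 40.7% held the C/EBP letters, 13.6% the PU.1 letters and 13.6% TATAAA, so a match is a description of these windows and not a site of binding. Of the other members in the table, the S100a11 stretch held the AP-1 letters TGANTCA in 2 places, against 7.81% of windows with at least 1, and the S100a6 stretch held none of the letters searched.

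After removal of low-quality cells and doublets, 31330 of 35274 barcodes were kept, between 6282 and 8695 per library with a median of 2996 to 4725 UMIs per cell (a UMI, or unique molecular identifier, marks 1 captured transcript). Cells were assigned to classes by how many markers of each class they carried, with no S100 gene among the markers. Levels are given as CPM, the UMIs of a gene divided by all UMIs of the class and scaled to 1000000. Levels were not corrected for gene length. Log2 ratios come from the tests, which scale the sums by TMM, as described under processing, and not by all UMIs alone. They can therefore differ from ratios of the CPM printed beside them. Control 2 stood apart from the other 3 libraries before any S100 gene was considered. Of its 4519 neutrophils, 4298 were mature, 187 immature and 34 dividing, against 3210, 2859 and 2189 mature of 5861, 5482 and 4289 in control 1, adenosine 1 and adenosine 2, and it held 5 granulocyte progenitors against 196 to 343. Adenosine 2 stood apart in its 1204 T or NK cells, against 197, 40 and 268 in the other libraries. The libraries shared 13 to 28 barcodes pair by pair, and no shared barcode had the same counts. Member results whose call rests on control 2 are given with and without it.

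S100a8 and S100a9 were by far the strongest signal of the neutrophils. S100a8 stood at 103432, 52892, 95793 and 113110 CPM in all neutrophils, and S100a9 at 102074, 71490, 81296 and 118910 CPM. The 2 transcripts together made up 20.6%, 12.4%, 17.7% and 23.2% of all neutrophil UMIs, lowest in control 2. Between 86.5% and 93.6% of all S100a8 UMIs and between 87.0% and 94.0% of all S100a9 UMIs of a library came from neutrophils, with 1.25% to 9.23% from granulocyte progenitors. In monocyte-macrophages S100a8 stood at 2319, 1071, 3003 and 1408 CPM. Neutrophils exceeded monocyte-macrophages in 4 of 4 libraries, by 6.37 log2 units for S100a8 (SE 0.37, adjusted p = 6.48e-05) and 6.65 for S100a9 (SE 0.40, adjusted p = 6.98e-05, edgeR quasi-likelihood test with the library as a block and Benjamini-Hochberg adjustment over 13671 genes). All 6 members passed this test, where 65.6% of all genes tested passed it too, so the count does not set the members apart.

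**Figure D1:**
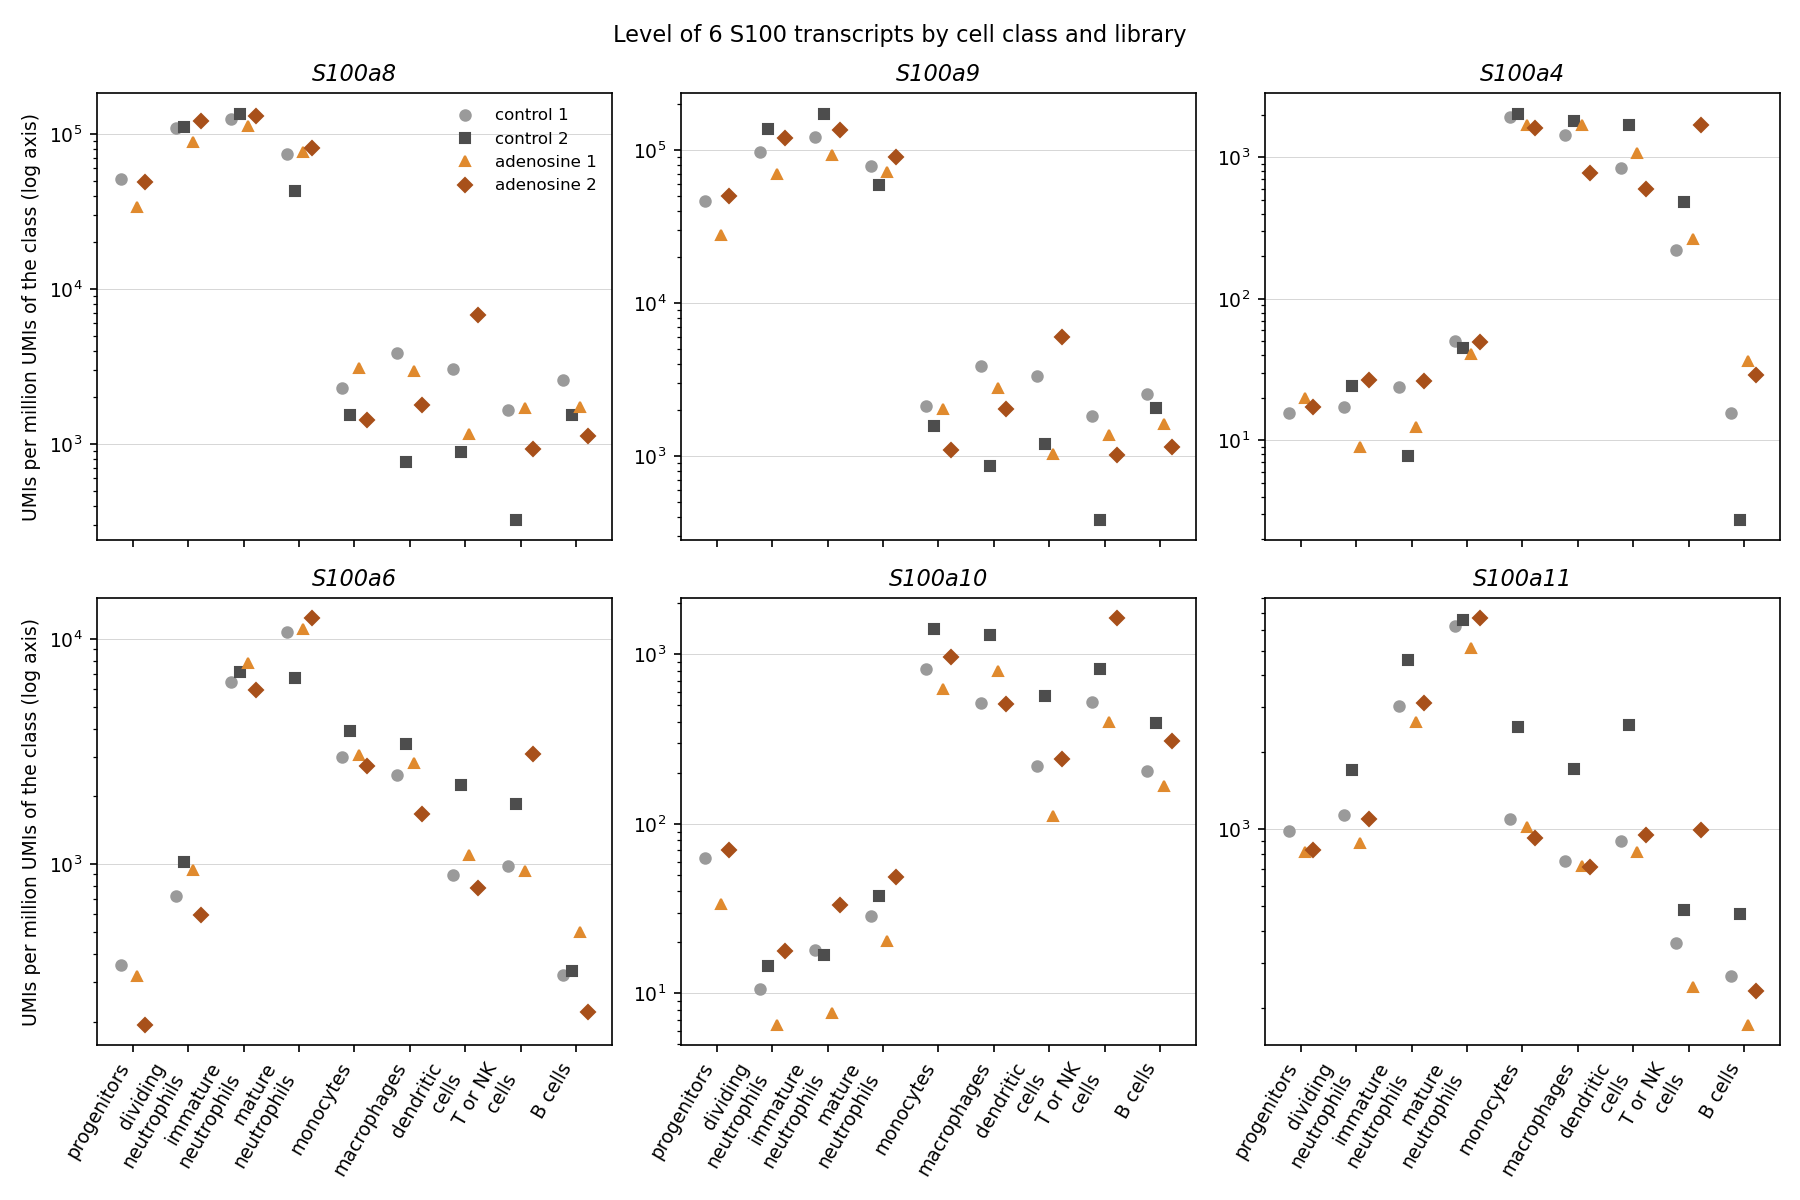
Level of each of the 6 transcripts in CPM (log axis) by cell class, with 1 point per library and classes of at least 20 cells in that library. S100a8 and S100a9 are high in the granulocyte classes, S100a4 in monocytes, macrophages, dendritic cells and T or NK cells, S100a10 in monocytes, macrophages and T or NK cells, and S100a6 and S100a11 in immature and mature neutrophils.

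The calprotectin transcripts peaked in immature neutrophils, which still carry the secondary granule transcripts Ltf, Camp and Ngp but no longer divide. In granulocyte progenitors, defined by the early granule proteases Elane, Mpo, Prtn3 and Ctsg, S100a8 stood at 51398, 33883 and 49183 CPM in control 1, adenosine 1 and adenosine 2 (control 2 held too few cells). It stood at 109018, 110413, 88805 and 120563 CPM in dividing neutrophils, at 123929, 134818, 112969 and 129900 CPM in immature neutrophils and at 74462, 42766, 76208 and 81281 CPM in mature neutrophils. The immature stage was the highest of the 4 in every library. S100a9 followed the same course, with 121531, 172919, 92322 and 135786 CPM in immature and 78678, 59094, 71589 and 90891 CPM in mature neutrophils.

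Each step was larger than the spread between libraries in the tests with the library as a block. Progenitors were lower than immature neutrophils by 2.13 log2 units for S100a8 (log2 ratio -2.13, SE 0.13, adjusted p = 5.08e-12, 3 libraries) and had a log2 ratio of -2.18 for S100a9 (SE 0.12, adjusted p = 2.02e-12). These are larger differences than the CPM give. Scaled by library size alone, the median log2 ratio of all genes in this comparison was 0.68, against 0.013 with TMM. Dividing neutrophils had log2 ratios of -0.57 (SE 0.091, adjusted p = 1.62e-06) and -0.64 (SE 0.090, adjusted p = 2.16e-07) against non-dividing immature cells. Here too the differences are larger than the CPM give. The median log2 ratio of all genes was 0.28 when scaled by library size alone, against -0.045 with TMM. Mature against immature neutrophils gave -1.02 for S100a8 (SE 0.27, adjusted p = 0.0196) and -0.89 for S100a9 (SE 0.28, adjusted p = 0.0344). The fall with maturity held its direction whichever library was left out, but its call did not. Without control 2 it was tighter, at -0.80 (adjusted p = 3.33e-06) and -0.66 (adjusted p = 3.08e-05). Without control 1, adenosine 1 or adenosine 2 the adjusted p of S100a8 was 0.101, 0.0750 and 0.107, and that of S100a9 was 0.146, 0.0979 and 0.155. Scaled by library size alone, S100a9 was also lost (adjusted p = 0.0644). Of all genes tested, 81.9% passed between progenitors and immature neutrophils, 72% between dividing and non-dividing cells and 47.6% between mature and immature neutrophils, so passing is common in each of these comparisons, in which 6, 6 and 5 of the 6 members passed.

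**Figure D2:**
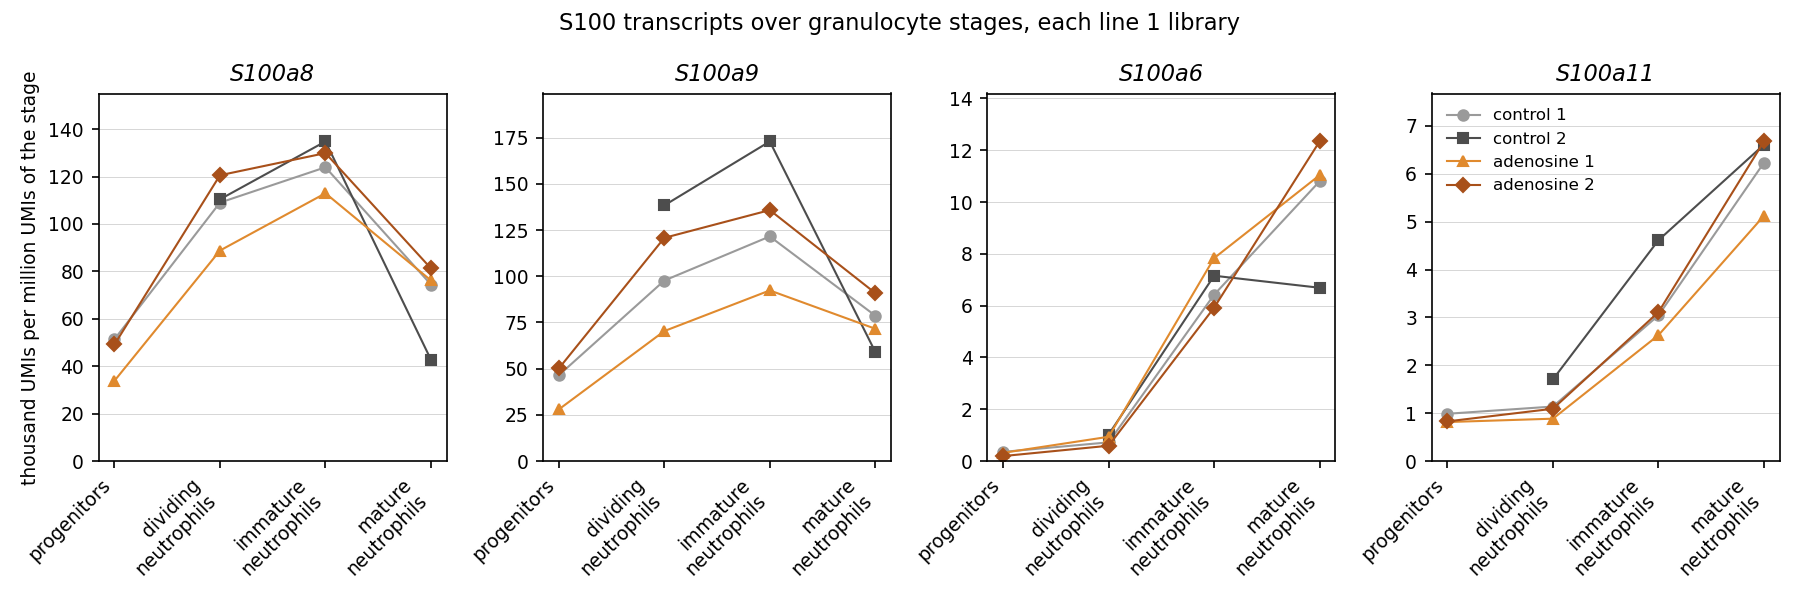
Level in units of 1000 CPM (linear axis from 0) over granulocyte progenitors, dividing, immature and mature neutrophils for S100a8, S100a9, S100a6 and S100a11, with 1 line per library. S100a8 and S100a9 are highest in immature neutrophils in all 4 libraries, while S100a11 is highest in mature neutrophils in all 4 and S100a6 in 3 of 4.

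The stages are ranges of a score (immature minus mature marker level) and not separate types: 694 of 20151 neutrophils lay within 0.5 of its cut. The median mature neutrophil carried 6 of 7 mature, 2 of 5 immature and 0 of 7 monocyte markers, and the median immature neutrophil 4, 5 and 1. When the neutrophils were divided into 5 equal parts along the score, S100a8 ran from 121755, 129673, 103631 and 128526 CPM in the least mature part to 59956, 45226, 57746 and 63825 CPM in the most mature. The least mature part was the higher in all 4 libraries.

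S100a6 and S100a11 were far lower in progenitors and dividing cells than in non-dividing neutrophils. S100a6, also called calcyclin, stood at 355, 318 and 194 CPM in the progenitors of control 1, adenosine 1 and adenosine 2. It reached 724, 1025, 939 and 593 CPM in dividing, 6423, 7155, 7835 and 5923 CPM in immature and 10802, 6691, 11036 and 12339 CPM in mature neutrophils. No library of one stage overlapped the next until immature and mature cells, where control 2 did not rise. The log2 ratio to immature neutrophils was -5.24 in progenitors (SE 0.14, adjusted p = 9.67e-17) and -3.43 in dividing cells (SE 0.089, adjusted p = 6.36e-25), the largest of any member in both comparisons. In mature neutrophils it was 0.44 (SE 0.22), which did not pass (adjusted p = 0.140), and 0.63 without control 2 (SE 0.085, adjusted p = 0.000102). Along the 5 parts of the score S100a6 did not keep rising. It stood at 2599, 2669, 3229 and 2098 CPM in the least mature part, peaked at 12193, 9533, 12934 and 13907 CPM (the third part, and the second in control 2) and stood at 9202, 6502, 8267 and 10726 CPM in the most mature.

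S100a11, also called calgizzarin, stood at 988, 815 and 829 CPM in progenitors of the same 3 libraries. It stood at 1139, 1707, 886 and 1093 CPM in dividing, 3043, 4612, 2629 and 3110 CPM in immature and 6230, 6608, 5122 and 6675 CPM in mature neutrophils. Each of the last 2 steps went up in 4 of 4 libraries. Against immature neutrophils the log2 ratio was -2.40 in progenitors (SE 0.10, adjusted p = 1.93e-14), -1.82 in dividing cells (SE 0.080, adjusted p = 3.51e-19) and 0.79 in mature cells (SE 0.17, adjusted p = 0.00820). The last call was lost without control 1, adenosine 1 or adenosine 2 (adjusted p 0.0689, 0.0727 and 0.0676), while the ratio stayed between 0.73 and 0.89. From the least to the most mature of the 5 parts, S100a11 went from 1876, 2589, 1484 and 1807 to 6873, 7892, 5521 and 7221 CPM.

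S100a4 and S100a10 were near the bottom of the range in neutrophils and high in monocytes. S100a4 stood at 32.5, 41.0, 22.1 and 33.4 CPM in neutrophils and at 1938, 2037, 1703 and 1628 CPM in monocytes. S100a10 stood at 20.7, 35.1, 12.04 and 34.6 CPM in neutrophils and at 819, 1410, 624 and 968 CPM in monocytes. Cells with at least 1000 UMIs were thinned to 1000, and smaller cells were left out of the thinned shares. After thinning, 1.67% to 3.18% of neutrophils kept an S100a4 UMI, against 74.95% to 80.3% of monocytes and 1.22% to 2.92% of B cells in the 3 libraries other than control 2, whose 78 B cells held 1 S100a4 UMI in all. Without thinning, and with the smaller cells, the shares were 4.56% to 9.98% of neutrophils, 97.7% to 98.6% of monocytes and 1.28% to 10.9% of B cells, at median depths of 2745 to 2853, 9316 to 11014 and 3834 to 4373 UMIs. In control 2 the unthinned share was 5.91% of neutrophils against 1.28% of B cells. Neutrophils against monocyte-macrophages gave log2 ratios of -5.05 for S100a4 (SE 0.21, adjusted p = 3.52e-05) and -4.46 for S100a10 (SE 0.22, adjusted p = 4.56e-05). S100a6 and S100a11 were higher in neutrophils, by 1.98 (SE 0.17, adjusted p = 0.000230) and 2.58 (SE 0.17, adjusted p = 8.42e-05).

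Within the granulocytes the small amounts of S100a4 and S100a10 also differed by stage. Mature neutrophils held 50.5, 44.9, 40.6 and 49.2 CPM of S100a4 against 23.7, 7.7, 12.5 and 26.4 CPM in immature ones, with no overlap between stages (log2 ratio 1.30, SE 0.26, adjusted p = 0.00603). The third of the 5 parts along the score held the most S100a4, at 70.8, 113.7, 59.7 and 46.6 CPM, against 32.8, 16.4, 17.4 and 28.4 CPM in the most mature part. For S100a10 the values were 28.7, 37.6, 20.3 and 48.4 CPM against 17.9, 16.95, 7.63 and 33.3 CPM (log2 ratio 0.78, SE 0.19, adjusted p = 0.0152). The S100a10 call was lost without adenosine 1 (adjusted p = 0.0773). S100a10 was the only member that passed as higher in progenitors than in immature neutrophils (log2 ratio 0.95, SE 0.15, adjusted p = 9.59e-06), at 62.8, 33.9 and 70.5 CPM. S100a4 passed as lower both in progenitors (log2 ratio -0.83, SE 0.19, adjusted p = 0.000598) and in dividing cells (log2 ratio -0.48, SE 0.16, adjusted p = 0.0103). In CPM it was not lower in dividing cells, with a mean over the 4 libraries of 19.3 CPM against 17.6 CPM in immature ones. Both calls ended when counts were scaled by library size alone (adjusted p = 0.443 and 0.390), and the second also without control 1 (adjusted p = 0.212) or adenosine 1 (adjusted p = 0.0521). The part of RNA from other cells in these low levels was not tested.

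Monocytes and macrophages differed little in the members. Macrophages, with at least 5 of 8 markers such as C1qa and Adgre1, held 748, 1721, 716 and 712 CPM of S100a11 against 1098, 2508, 1018 and 921 CPM in monocytes, lower in 4 of 4 libraries. S100a11 was the 1 member of 6 that passed (log2 ratio -0.46, SE 0.081, adjusted p = 0.0113), where 19.7% of all genes tested passed. The call was lost without control 1 (adjusted p = 0.0843) or adenosine 1 (adjusted p = 0.0656). Control 2 held 451 of the macrophages and the other libraries 91 to 126. Without control 2, S100a9 (log2 ratio 0.78, adjusted p = 0.000148) and S100a8 (0.39, adjusted p = 0.0445) passed as higher in macrophages, and S100a4 (-0.44, adjusted p = 0.0458) and S100a6 (-0.32, adjusted p = 0.0445) as lower. With all 4 libraries these 4 had adjusted p of 0.401, 0.928, 0.149 and 0.0958. Of all genes tested without control 2, 3352 of 11875 passed. The median macrophage gave 0.190%, 0.0973%, 0.103% and 0.136% of its UMIs to S100a8 and S100a9 together. The median monocyte gave 0.182%, 0.0900%, 0.126% and 0.127%. Summed over cells, macrophages gave 0.774%, 0.163%, 0.575% and 0.380%. In both classes the summed share was above the upper quartile of the cells in every library, so a minority of cells weighs on it. S100a8 in macrophages was at 3.75%, 1.45%, 3.10% and 1.58% of the neutrophil level, and Camp, a granule gene of neutrophils, was at 2.67%, 0.542%, 2.83% and 0.644%, against 1.55%, 3.73%, 1.68% and 0.782% in monocytes. The part of neutrophil RNA in the macrophage values of S100a8 and S100a9 was not tested.

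Dendritic cells (50, 79, 49 and 32 cells) held S100a4 at 838, 1706, 1079 and 600 CPM and S100a11 at 898, 2555, 814 and 953 CPM, with control 2 the highest for both, and were not tested between treatments.

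In lymphocytes the members split again. T or NK cells held S100a4 at 220, 483, 264 and 1709 CPM, S100a6 at 983, 1852, 935 and 3090 CPM, S100a10 at 522, 821, 400 and 1629 CPM and S100a11 at 360, 483, 243 and 992 CPM. Adenosine 2 was the highest of the 4 libraries for each of these genes. It supplied 44.5% of its own S100a4 UMIs and 50.3% of its S100a10 UMIs from T or NK cells, against 1.45% and 4.60% at most in the other libraries. The T or NK cells of adenosine 2 also differed in markers that were looked at after these values were seen. The cytotoxic granule gene Nkg7 stood at 818, 1217, 741 and 2674 CPM, and Ncr1, a receptor of NK cells, at 207, 341, 217 and 38.9 CPM. Within cells that carried a transcript of the T cell receptor complex, S100a4 stood at 228, 475, 289 and 1716 CPM and S100a10 at 518, 785, 390 and 1634 CPM, so adenosine 2 was also the highest there. Whether the makeup of the T or NK cells accounts for the S100 levels was not tested, and with 40 T or NK cells in control 2 the class was not tested between treatments. B cells held S100a4 at 15.7, 2.74, 36.4 and 29.0 CPM, S100a6 at 321, 336, 501 and 221 CPM, S100a10 at 206, 394, 167 and 307 CPM and S100a11 at 266, 468, 172 and 233 CPM. Each of these was below the T or NK cells of the same library, while S100a10 in B cells was above its level in neutrophils in 4 of 4 libraries.

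S100a8 and S100a9 UMIs were found in cells of every class. With cells of at least 1000 UMIs thinned to 1000 and smaller cells left out, an S100a8 UMI was present in 99.6%, 98.7%, 99.2% and 99.6% of neutrophils, in 62.5%, 43.0%, 62.7% and 51.4% of monocytes and in 60.5%, 38.5%, 44.8% and 55.8% of B cells. Without thinning, the share in B cells was 96.5%, 79.5%, 86.3% and 95.3% at a median of 4373, 3871, 4044 and 3834 UMIs, and monocytes had 96.9% to 99.8%. The monocyte share was above that of B cells in 3 libraries and below it in adenosine 2. B cells are not known to make calprotectin. In droplet data free RNA from other cells can give UMIs in cells that do not make them. Other neutrophil transcripts in B cells are therefore set beside S100a8 and S100a9, and the source of these UMIs was not tested.

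The level of S100a8 in B cells was 2.52%, 2.90%, 1.81% and 0.989% of that in neutrophils of the same library, and that of S100a9 was 2.48%, 2.90%, 2.00% and 0.965%. These levels are sums over cells, and a minority of cells weighs on them. S100a8 and S100a9 together made up 0.513%, 0.361%, 0.336% and 0.227% of the summed B cell UMIs. In the median B cell they made up 0.191%, 0.0691%, 0.0986% and 0.159%, and at the upper quartile 0.260%, 0.111%, 0.143% and 0.213%. Among 6 other neutrophil genes the share in B cells ran from 0.424% to 3.97%. S100a8 and S100a9 lay within that range, and in control 2 they were above each of the 6 (0.424% to 2.32%). In monocytes S100a8 was at 2.22%, 2.91%, 3.21% and 1.26% of the neutrophil level, while the 6 genes ran from 0.710% to 7.40%. Lyz2, a lysozyme gene that monocytes make themselves, was at 190% to 514%. The monocyte levels of S100a8 and S100a9 lay within the span of these transcripts, and how much of them is the monocytes' own RNA was not tested.

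**Figure D3:**
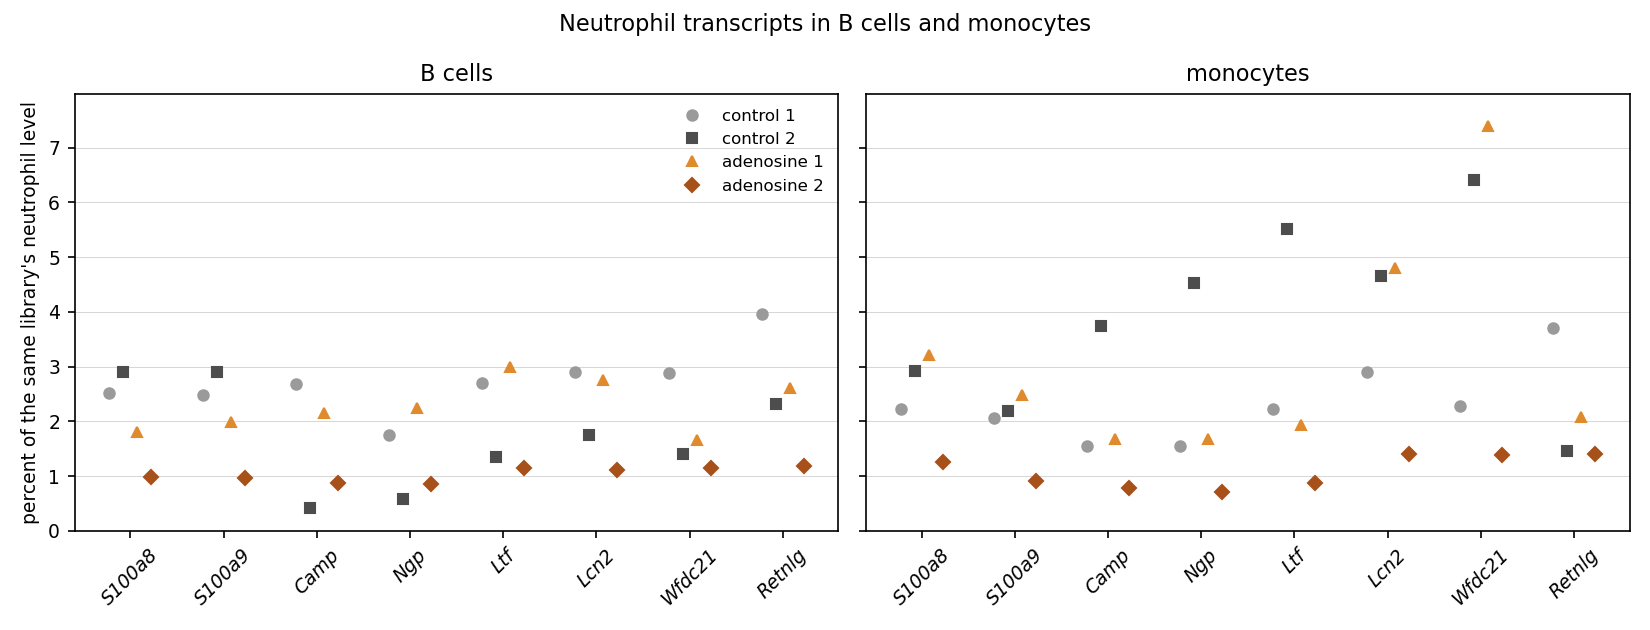
Level of S100a8, S100a9 and 6 other neutrophil transcripts in B cells (left) and monocytes (right) as a percent of the level in neutrophils of the same library, on a linear axis from 0 with 1 point per library. S100a8 and S100a9 lie between 0.921% and 3.21%, inside the span of the other transcripts over all libraries. In B cells of control 2 both are at 2.90%, above each of the 6 others (0.424% to 2.32%).

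The proportion of the 2 calprotectin transcripts differed more between libraries than between the stages of 1 library. Neutrophils held 1.01, 0.740, 1.18 and 0.951 S100a8 UMIs per S100a9 UMI. B cells held 1.03, 0.740, 1.07 and 0.975, close to the neutrophils of their own library. In monocytes the ratio was 1.09, 0.981, 1.52 and 1.30, above that of neutrophils in 4 of 4 libraries by 0.33 log2 units (SD 0.15, n = 4). The exact permutation test on the signs gave p = 0.125, two-sided, which is the smallest that 4 libraries allow. The ratio also fell along the stages, at 1.12, 0.798, 1.26 and 0.998 in dividing, 1.02, 0.780, 1.22 and 0.957 in immature and 0.946, 0.724, 1.06 and 0.894 in mature neutrophils. Dividing cells were above all neutrophils by 0.10 log2 units (SD 0.029) and mature cells below them (log2 difference -0.09, SD 0.047), each in 4 of 4 libraries. The exact permutation test again gave p = 0.125 for each (6 classes compared, so that no adjusted p can be lower). All neutrophils include these stages, so a stage above the whole forces another below it. These results are therefore not separate, and the stages were not tested against each other.

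**Figure D4:**
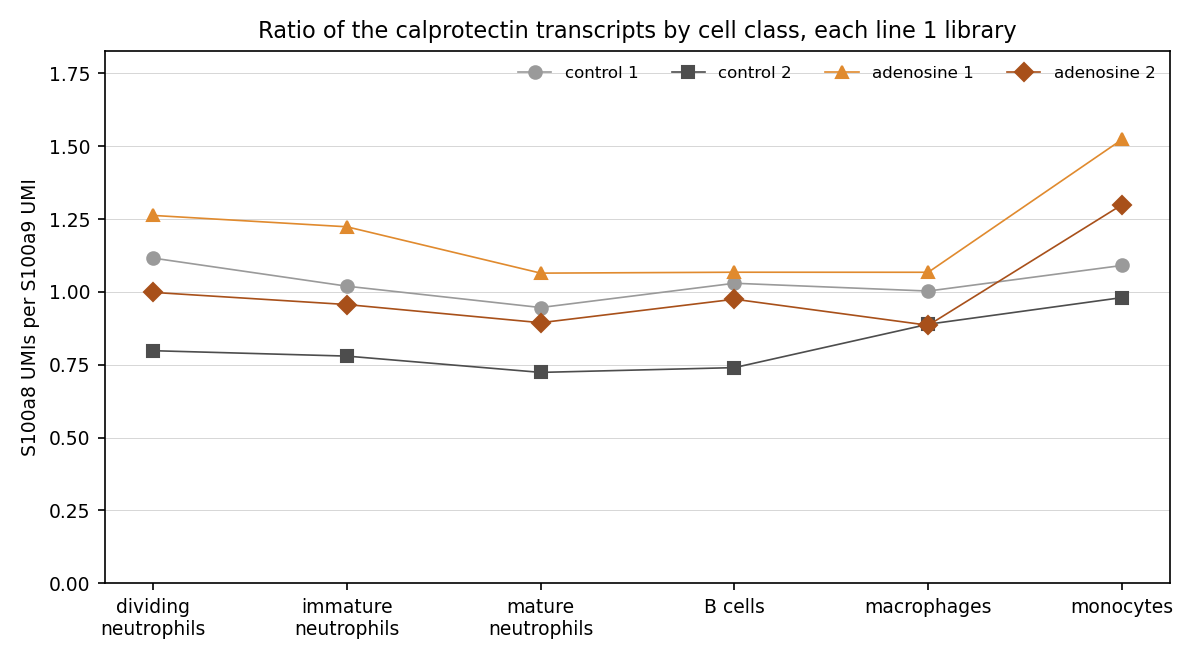
S100a8 UMIs per S100a9 UMI by cell class on a linear axis from 0, with 1 line per library. In every library the ratio steps down from dividing to mature neutrophils and is higher in monocytes than in mature neutrophils.

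From cell to cell the 2 transcripts rose and fell together in neutrophils. Across the cells of a library, which share its depth and its free RNA, Spearman's rho of their shares of UMIs was 0.90, 0.86, 0.92 and 0.88 in mature, 0.57, 0.63, 0.71 and 0.58 in immature and 0.30, 0.16, 0.52 and 0.27 in monocytes. Mature neutrophils were more uneven than immature ones. The quartiles of mature cells ran from 7.84% to 19.8% of UMIs for the pair in control 1 and from 4.67% to 13.9% in control 2, against 19.8% to 28.0% and 27.3% to 34.7% in immature cells. S100a8 and S100a6 went together in mature neutrophils (rho 0.55, 0.32, 0.67 and 0.46). In immature ones rho was -0.01, 0.03, 0.19 and -0.08 and Pearson's r 0.23, 0.11, 0.31 and 0.20, against 0.62, 0.32, 0.64 and 0.58 in mature ones.

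Across 8 classes in 4 libraries (32 points that share libraries and depth) S100a8 and S100a9 correlated at Pearson's r = 0.996 on log2(CPM + 10), S100a6 with S100a11 at 0.84 and S100a4 with S100a10 at 0.81. S100a8 and S100a10 ran against each other (r = -0.92). Among 6551 other genes, those most like S100a8 were Chil1, which encodes a chitinase-like protein (r = 0.979), Wfdc21 (0.976) and Dach1 (0.974), and those most like S100a9 were Chil1 (0.985), Dach1 (0.969) and Trem3 (0.966). S100a4 was nearest to the monocyte chemokine receptor Ccr2 (0.964), itself one of the markers used to assign monocytes, to Rgs10 (0.936) and to Stard3nl (0.927). S100a10 was nearest to Nme2 (0.959), the galectin gene Lgals1 (0.954) and Fkbp1a (0.947). S100a6 was nearest to Cln3 (0.905), Prr13 (0.893) and Glipr1 (0.879), and S100a11 to Ostf1 (0.922), Taldo1 (0.907) and Grina (0.892).

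Of 10 other S100 genes, S100a13 and S100a1 had the highest levels. In all cells S100a13 stood at 139, 113, 119 and 174 CPM and S100a1 at 33.1, 22.9, 32.6 and 30.7 CPM, and the others did not exceed 2.52 CPM in any library. S100a1 fell with maturity, from 15.8, 19.3, 12.9 and 14.7 CPM in immature to 3.95, 2.10, 1.98 and 5.00 CPM in mature neutrophils (log2 ratio -2.41, adjusted p = 0.000693). S100a13 fell as well (log2 ratio -1.48, adjusted p = 0.000646). Of the 10, 4 were tested in this comparison, none passed as higher and 2 passed as lower.

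Most receptor and signalling genes of extracellular S100a8 and S100a9 were higher in mature than in immature neutrophils. Of 10 genes on this list, 7 passed as higher and 0 as lower, where 24.8% of all genes tested passed as higher and 22.8% as lower, with a median log2 ratio of 1.38 against 0.013 over all genes tested. Without control 2 the count was 7 of 9 tested, with a median of 0.94, where 3415 of all 11129 genes passed as higher. Without control 1 it was 6 of 10, where 1767 of all 11051 genes did. Alcam, an adhesion molecule that has been described as a receptor of S100b, stood at 128, 87.8, 139 and 102 CPM in immature and 1056, 2841, 1119 and 709 CPM in mature neutrophils (log2 ratio 3.30, adjusted p = 0.000798). Cd14, a co-receptor of Toll-like receptor 4, stood at 96.2, 2939, 55.7 and 17.6 CPM in mature neutrophils (log2 ratio 4.83, adjusted p = 0.000109), with control 2 far above the others. Without control 2 the log2 ratios of Alcam and Cd14 were 2.81 (adjusted p = 1.22e-09) and 4.30 (adjusted p = 4.26e-09). Nptn, an immunoglobulin-family receptor, rose by 1.05 (adjusted p = 0.00109), and Bsg, which encodes basigin, did not pass (0.36, adjusted p = 0.518, and -0.20, adjusted p = 0.137, without control 2). Tlr4 itself, named after its values were seen, stood at 31.9, 20.0, 28.9 and 24.9 CPM in immature and 96.6, 347, 91.7 and 79.4 CPM in mature neutrophils (log2 ratio 2.02, adjusted p = 0.00689, and 1.51, adjusted p = 1.41e-07, without control 2). Control 2, the lowest library for S100a8 and S100a9 in mature neutrophils, was the highest for Alcam, Cd14 and Tlr4.

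The partners of the other members did not move as 1 group. Of 8 annexins and other partners, 3 passed as higher and 1 as lower in mature than in immature neutrophils, a share near the 47.6% of all genes that passed. Without control 2 the counts were 3 and 4, where 7052 of all 11129 genes tested passed. Anxa2, the annexin that binds S100a10, stood at 510, 608, 546 and 581 CPM in immature and 865, 959, 708 and 1083 CPM in mature neutrophils, higher in 4 of 4 libraries (log2 ratio 0.56, adjusted p = 0.0134). The Anxa2 call was lost without control 1, adenosine 1 or adenosine 2 (adjusted p of 0.0910, 0.0529 and 0.0891). Anxa1 fell from 2460, 3766, 2603 and 2872 to 567, 217, 709 and 666 CPM (log2 ratio -2.64, adjusted p = 0.00209). Ahnak, a scaffold of the annexin complex, was low in neutrophils (3.79 to 14.9 CPM over immature and mature cells) and stood at 660, 768, 596 and 437 CPM in monocytes. Myh9, the heavy chain of the myosin that S100a4 binds, did not pass between the 2 stages (log2 ratio -0.28, adjusted p = 0.177).

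Among 6 regulators of myeloid genes, 3 passed as higher and 1 as lower in mature neutrophils, against 47.6% of all genes in either direction. The counts were 4 and 1 without control 2, where 7052 of all 11129 genes tested passed. They were 2 and 1 without control 1, adenosine 1 or adenosine 2. In those fits 3296 of 11051, 3542 of 11151 and 3887 of 11267 genes passed. Cebpb stood at 219, 267, 141 and 131 CPM in immature and 1165, 4302, 603 and 505 CPM in mature neutrophils (log2 ratio 2.47, adjusted p = 0.00174, and 2.02, adjusted p = 2.50e-08, without control 2). Cebpd, at 301, 361, 268 and 348 against 493, 353, 368 and 529 CPM, did not pass (log2 ratio 0.32, adjusted p = 0.134) but did without control 2 (0.45, adjusted p = 0.000132). Spi1, which encodes PU.1, and Stat3 rose by 0.44 (adjusted p = 0.0224) and 0.85 (adjusted p = 0.00229). The Spi1 call was lost without control 1, adenosine 1 or adenosine 2 (adjusted p of 0.124, 0.125 and 0.110). Cebpe, the factor of granule formation and named after its values were seen, was the 1 that fell (log2 ratio -3.37, adjusted p = 6.93e-05), from 250, 401, 260 and 363 to 31.7, 29.5, 34.6 and 35.4 CPM.

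The study compared calluses treated with adenosine and with the empty microgel. No member differed between the treatments beyond the spread between libraries in any class tested. In the sum of all cells 0 of 16379 genes passed (0%), with 448 at an unadjusted p under 0.05 and 18 called by DESeq2, and no member passed by DESeq2 in any of the 4 sets of cells tested. S100a8 stood at 48467, 28076, 37969 and 36967 CPM and S100a9 at 47516, 37775.5, 32030.5 and 38636 CPM, with the treatments overlapping. The log2 ratios of adenosine over control were -0.18 for S100a8 (SE 0.49, adjusted p = 0.938) and -0.44 for S100a9 (SE 0.48, adjusted p = 0.866). A sum over all cells mixes the share of each class with the level within it, and levels within classes follow below. Neutrophils made up 67.4%, 71.9%, 66.7% and 52.7% of the cells kept. The treatments did not overlap for 2 of the 6 members in all cells, S100a6 and S100a11. With 2 libraries against 2, an exact two-sided permutation test cannot give a p below 0.333. The share of all genes without overlap was not computed, so nothing is read from that count.

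In neutrophils 0 of 12228 genes passed (0%), with 333 at an unadjusted p under 0.05 and 59 called by DESeq2. The log2 ratio was 0.33 for S100a8 (SE 0.93, adjusted p = 0.932) and 0.11 for S100a9 (SE 0.93, adjusted p = 0.980). In immature neutrophils alone they were -0.26 and -0.54, in mature neutrophils alone 0.37 and 0.17, with adjusted p from 0.941 to 1.00. In monocyte-macrophages 0 of 12675 genes passed (0%), with 204 at an unadjusted p under 0.05 and 5 called by DESeq2. S100a4, the member with the smallest SE there, stood at 1910 and 1929 CPM in the control and 1721 and 1565 CPM in the adenosine libraries (log2 ratio -0.34, SE 0.26, adjusted p = 0.999). In B cells 0 of 10168 genes passed (0%), with 313 at an unadjusted p under 0.05 and 12 called by DESeq2. The difference between the changes in neutrophils and in monocyte-macrophages was tested as an interaction, and 0 of 13671 genes passed (0%, 231 at an unadjusted p under 0.05, edgeR alone), with members between -0.21 and 0.29.

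**Figure D5:**
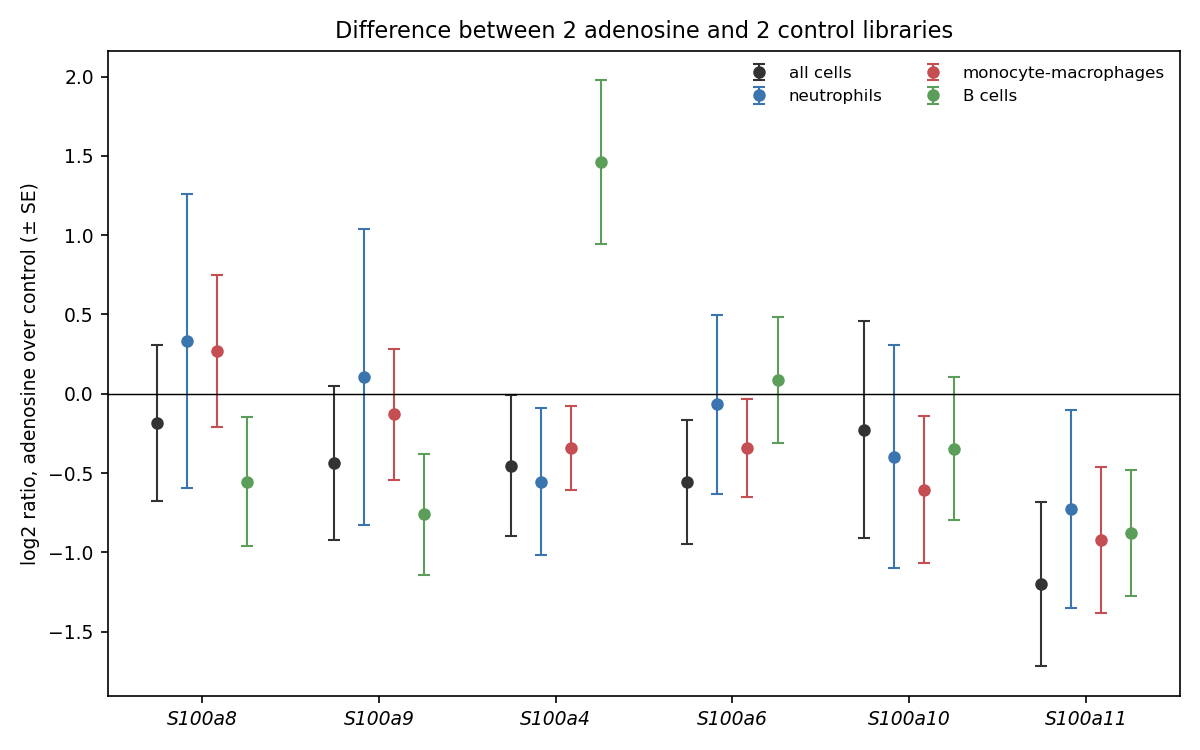
Log2 ratio of 2 adenosine over 2 control libraries for each member in all cells, neutrophils, monocyte-macrophages and B cells, with bars of 1 SE derived from the edgeR test statistic. S100a11 is below 0 in all 4 sets of cells, and no value passed the test.

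S100a11 was the member with the lowest ratio in each of the 4 sets of cells, and the ratio shrank without control 2. S100a11 stood at 3918, 6291, 3253 and 3763 CPM in neutrophils, 1053, 2150, 983 and 889 CPM in monocyte-macrophages and 266, 468, 172 and 233 CPM in B cells. Both adenosine libraries were below both controls each time, and the share of all genes that split in this way was not computed. The log2 ratios were -1.20 in all cells (SE 0.52), -0.73 in neutrophils (SE 0.62), -0.92 in monocyte-macrophages (SE 0.46) and -0.88 in B cells (SE 0.40), with adjusted p of 0.860, 0.879, 0.999 and 1.00. Without control 2 they were -0.50, -0.12, -0.17 and -0.31. Without control 1, so that control 2 stood alone for its group, the log2 ratio of S100a11 was -1.13 in neutrophils and -1.32 in B cells. That of S100a4 in B cells was 3.41. In such a fit the lone library is assumed to vary like the other group, so no call is read from it. The S100a4 value rests on 1 UMI in the 78 B cells of control 2, and with all libraries its log2 ratio in B cells was 1.46 (SE 0.52, adjusted p = 1.00).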

How the data were processed

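The deposited matrices hold UMI counts per gene and barcode, in whole numbers, made with Cell Ranger 7.0.0 and bcl2fastq on build mm10, per the submitters' processing notes. The annotation release is not given in the sources used here. Barcodes that had fewer than 200 genes or at least 10% mitochondrial UMIs (1576) and those with the highest Scrublet scores (2368, at 0.8% per 1000 barcodes) were removed (scanpy 1.11.5). A class needed 3 to 5 markers with a UMI and a lead of 0.15 in the share of markers over the next class; 971 cells passed no list and 626 more than 1. Neutrophils needed 3 of 10 neutrophil or 3 of 7 mature markers and at most 2 of 7 monocyte markers; this gate was widened after neutrophils of control 2 were seen to be missed. Leiden clusters made without S100 genes held 99.4% of the gated neutrophils, and for dendritic cells the gate held 29.6% of the clustered cells (210 gated, 702 clustered).

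Counts were summed per library and class, passed through filterByExpr and TMM scaling and given to edgeR's quasi-likelihood test (edgeR 4.0.16, R 4.3.3), with Benjamini-Hochberg adjustment over all genes and a threshold of 0.05. Treatments were compared in classes with at least 50 cells in every library, and classes within a library with at least 20. The SE of an edgeR log2 ratio was derived from the test, as the absolute ratio divided by the square root of the F statistic. DESeq2 1.42.0 was an alternative. On simulated counts for neutrophils (12228 genes, 2 libraries against 2) the test found 83% of 2-fold and 96% of 4-fold changes at a coefficient of variation of 0.1, and 0% and 18.5% at 0.4; the observed value was 0.456. The members, gene lists and tests were chosen with earlier results of these data known. Named beside the members are the 3 genes most like each by Pearson's r among genes with a mean of at least 20 CPM, and up to 4 genes of each list with the highest level in all cells.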

Additional observations from a re-analysis of the deposited data

Results flagged for a closer look

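The S100a4 ratio had opposite signs in B cells and monocyte-macrophages, and the difference was not tested. It passed in neither class (edgeR, adjusted p = 1.00 and 0.999). In monocyte-macrophages both adenosine libraries lay below both control libraries (log2 ratio -0.34), and in B cells both lay above (log2 ratio 1.46), so that the first ratio minus the second was -1.80. The B cell values of 15.7, 2.74, 36.4 and 29.0 CPM rest on 35, 1, 59 and 86 UMIs, and in control 2 a count of 3 equals 8.21 CPM.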

How the results depend on the processing

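Over the 6 members, 10 comparisons and all alternatives, 419 of 468 log2 ratios kept their direction and their side of the threshold, 17 lost a call, 8 gained one and 24 changed sign. The alternatives for mature or immature neutrophils alone, the crossed numbers, the dividing cells, the progenitors and the gene lists were chosen after the data were seen. Between treatments, where edgeR called 0 genes, DESeq2 called 18 in all cells, 59 in neutrophils, 5 in monocyte-macrophages and 12 in B cells, and edgeR without a filter on low counts called 600 in neutrophils and 99 in B cells. With 1 library left out, the count ran from 0 to 4379 in neutrophils and from 0 to 608 in monocyte-macrophages, both highest without control 1, and from 46 to 281 in B cells. Between classes it ran from 3296 to 7052 for mature against immature neutrophils and from 427 to 3352 for macrophages against monocytes, both highest without control 2. The causes were not tested.

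Treatment ratios that changed sign with 1 library left out ran from -0.45 to 0.068 for S100a8 and from -1.28 to 0.40 for S100a10 in all cells. In neutrophils they ran from -0.33 to 0.47 for S100a9, from -0.16 to 0.054 for S100a6 and from -1.52 to 0.26 for S100a10. In monocyte-macrophages they ran from -0.26 to 0.81 for S100a8, from -0.52 to 0.31 for S100a9 and from -1.02 to 0.015 for S100a10. In B cells they ran from -0.55 to 0.53 for S100a6 and from -0.92 to 0.29 for S100a10, and between macrophages and monocytes S100a8 ran from -0.20 to 0.39. In immature neutrophils alone the ratio was -0.26 for S100a8, -0.54 for S100a9, 0.12 for S100a4 and 0.18 for S100a10. S100a6 was at 0.36 in mature neutrophils alone and at 0.092 in all neutrophils scaled by library size alone.

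With the replicate block 0 genes passed in each of the 4 treatment comparisons, and the crossed block also gave 0 in all cells. Same-numbered libraries deviated together by r = -0.13 in all cells, 0.0026 in neutrophils, -0.06 in monocyte-macrophages and 0.20 in B cells, and no label says that a number marks a shared animal or batch. In B cells the replicate block raised the genes at an unadjusted p under 0.05 from 313 to 604. Scaling by library size alone moved the split of calls from 4358 higher and 4609 lower to 2292 and 7638 for neutrophils against monocyte-macrophages, from 3386 and 3714 to 4585 and 2435 for dividing cells, and from 4743 and 4723 to 6488 and 3036 for progenitors, with the median of all genes at -0.81, 0.28 and 0.68. No alternative was run for T or NK cells and dendritic cells, which had under 50 cells in a library.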
